A study of Mus musculus with 6 samples.

Results

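The genes described here encode the proteins of the mitochondrial ribosome. They were chosen by name, as the protein-coding genes whose symbol starts with Mrpl or Mrps followed by a number, which gave 78 of the 55471 genes in the table, 49 of them Mrpl (large subunit) and 29 Mrps (small subunit). Transcripts were sequenced from the total RNA of haematopoietic stem cells, sorted from mice that carry ETV6-RUNX1, a fusion of transcription factor genes known from childhood B-cell precursor leukaemia. All 6 libraries came from ETV6-RUNX1 mice, so the uninduced group carried the allele too. The uninduced group (n = 3 libraries) came from mice without doxycycline, and the induced group (n = 3 libraries) from mice given doxycycline in food for 2 weeks. The sort kept cells that had Kit, Sca-1 and CD150 on their surface and lacked CD48 and lineage markers. Mouse age, the strain background and the promoter that drives the fusion are not given in the sources used here. Mice given the drug but lacking the fusion are not analysed here, so fusion and drug cannot be told apart. As background, doxycycline belongs to the tetracyclines, antibiotics that are known to inhibit the mitochondrial ribosome itself. The labels do not say whether each library came from a separate mouse, so the p-values measure the spread between these libraries, which may be technical.

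The mitochondrial ribosome makes the few proteins encoded by mitochondrial DNA, which are core subunits of the respiratory chain and of ATP synthase. Its RNAs are transcribed inside the organelle, whereas all of its proteins are encoded in the nucleus, made in the cytosol and imported. Many of these proteins have bacterial homologues, and the others were acquired by mitochondria. Resting haematopoietic stem cells are known for low protein synthesis and a reliance on glycolysis, and mitochondrial respiration is needed for their differentiation.

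Values were TPM, in which each gene's reads are corrected for its length and given as a part of the library total, so they keep no sequencing depth. The depth is therefore unknown, and no counting interval can be given. Stem cell markers summed to between 444 and 624 TPM in the uninduced and between 510 and 543 TPM in the induced libraries. No library of unsorted cells was available to set beside these sums. Of 9 stem cell markers, 3 rose and 2 fell, beside 1.29% and 10.2% of all genes tested. After the median-of-ratios scaling described below, 4 rose and 1 fell, beside 2.88% and 3.1%. Erythroid markers summed to between 62.1 and 77.5 TPM without induction and between 421 and 483 TPM with it, and 6 of the 7 that reached a mean of 1 TPM in each group rose. Granulocyte and monocyte markers summed to between 252 and 297 TPM and between 238 and 290 TPM, with 1 of 7 tested lower and 1 higher. After median-of-ratios scaling 0 of these 7 were lower and 2 higher. Megakaryocyte markers summed to between 102 and 135 TPM and between 118 and 129 TPM, with 1 of the 4 that reached that mean in each group lower and 1 higher. Endothelial and stromal markers summed to between 13.7 and 23.5 TPM and between 28.5 and 38.0 TPM, with Col1a1 and Lepr at 0. Lymphoid markers summed to between 10.7 and 17.5 TPM and between 0.0636 and 1.03 TPM, and none of them reached a mean of 1 TPM in both groups. The lymphoid markers Cd79a, Pax5, Il7r, Dntt, Cd3e and Cd8a were listed at 0 in every library. The Etv6 level was 84.5 ± 9.48 TPM (SD, n = 3) without and 83.0 ± 3.70 TPM (SD, n = 3) with induction, and the Runx1 level was 37.1 ± 8.45 and 44.4 ± 5.24 TPM (SD, n = 3). Neither row separates the fusion from the endogenous genes, so they check nothing about the induction.

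The mitochondrial ribosomal protein genes took a smaller part of the library after induction. Their TPM summed to 1602, 1934 and 1466 in the uninduced libraries and to 1073, 930 and 1127 in the induced ones. The means were 1668 ± 241 and 1043 ± 102 TPM (SD, n = 3), so the induced sum was 62.6% of the uninduced sum, and the groups did not overlap. The whole nuclear protein-coding part of the libraries was smaller too. The share of TPM in nuclear protein-coding genes was 29.8% ± 3.13 without induction and 21.9% ± 1.35 with it (SD, n = 3). A single short RNA gene, Gm23935, held 9.33% ± 7.19 and 22.5% ± 4.77 (SD, n = 3). Within the nuclear protein-coding TPM alone, the 78 genes held 0.537%, 0.588% and 0.551% in the uninduced libraries and 0.488%, 0.453% and 0.485% in the induced ones. On that scale the means were 0.559% ± 0.0266 and 0.475% ± 0.0195 (SD, n = 3), and the groups again did not overlap. No test was applied to these sums. In bulk libraries, fewer cells of a type and less RNA per cell cannot be told apart.

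**Figure D1:**
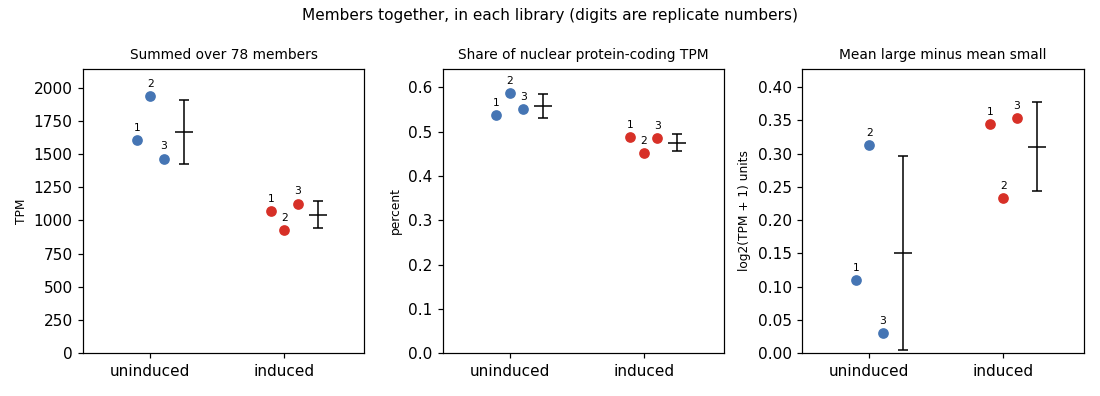
Summed TPM of the 78 genes (left), their percent of all nuclear protein-coding TPM (middle) and the mean log2(TPM + 1) of large-subunit minus small-subunit genes (right), in each of 3 uninduced and 3 induced libraries. Points are libraries with their replicate number, and bars are the mean ± SD. The left and middle panels show no overlap between groups, whereas the uninduced and induced libraries overlap in the right panel.

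Gene by gene, most members had lower values after induction and few passed the test. A limma model of log2(TPM + 1) was fitted over the 13470 genes whose mean reached 1 TPM. It held 77 of the 78 genes, and all 77 also reached a mean of 1 TPM in each group. Mrps10, a small-subunit protein with a bacterial homologue, was listed at 0 in all 6 libraries. The change was negative for 71 of the 77 genes, with a median log2 change of -0.63 and a middle range of -0.90 to -0.42. The median over all genes tested was -0.35, so most genes of these libraries had a negative change too. Of the 77 genes, 61 (79.2%) lay below that median. After median-of-ratios scaling, which sets the typical gene to no change, the median over all genes was 0.00 and that of the 77 genes was -0.25, with 61 genes negative.

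By the limma test with Benjamini-Hochberg adjustment over all 13470 genes, 9 of the 77 genes fell and 0 rose. Of all genes tested, 10.2% fell and 1.29% rose, so the members' share of falling genes (11.7%) was near the background. At an unadjusted p under 0.05 the counts were 31 lower and 0 higher, against 24.2% and 3.73% of all genes. The 9 genes that fell were Mrps12, Mrps18c, Mrps28 and Mrps18b of the small subunit and Mrpl36, Mrpl18, Mrpl23, Mrpl52 and Mrpl2 of the large. After median-of-ratios scaling only Mrps12 passed among these 77 genes, with 0 higher, against a background of 3.1% lower and 2.88% higher. At an unadjusted p under 0.05 that scale gave 9 lower and 4 higher, with a background of 11% and 10.7%. The other 8 had adjusted p from 0.0504 to 0.192 on that scale (limma). Over 17 alternative fits Mrps28 passed in 15, Mrps18c in 14, Mrpl18 and Mrpl52 in 11 each, Mrpl36 in 7, Mrpl2 and Mrpl23 in 4 each and Mrps18b in 3. The count of 9 also dropped to 5 without uninduced replicate 2, to 4 without induced replicate 1 and to 5 without induced replicate 3. Groups that did not overlap were more frequent than calls: the induced libraries lay wholly below the uninduced ones for 30 of 77 genes and wholly above for 1, against 28.2% and 4.83% of all genes. On the median-of-ratios scale these counts were 13 and 4, with a background of 14.3% and 13.6%. The gene wholly above was Mrpl1, whose product forms the mobile L1 stalk near the tRNA exit site. It was at 4.65, 5.08 and 3.43 TPM without induction and at 5.77, 7.09 and 5.97 TPM with it (log2 change 0.44 ± 0.31 SE; limma, adjusted p = 0.394). On the median-of-ratios scale it was joined by Mrpl16, Mrpl43 and Mrpl48, none of which passed, and all of these were named after their values were seen.

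**Figure D2:**
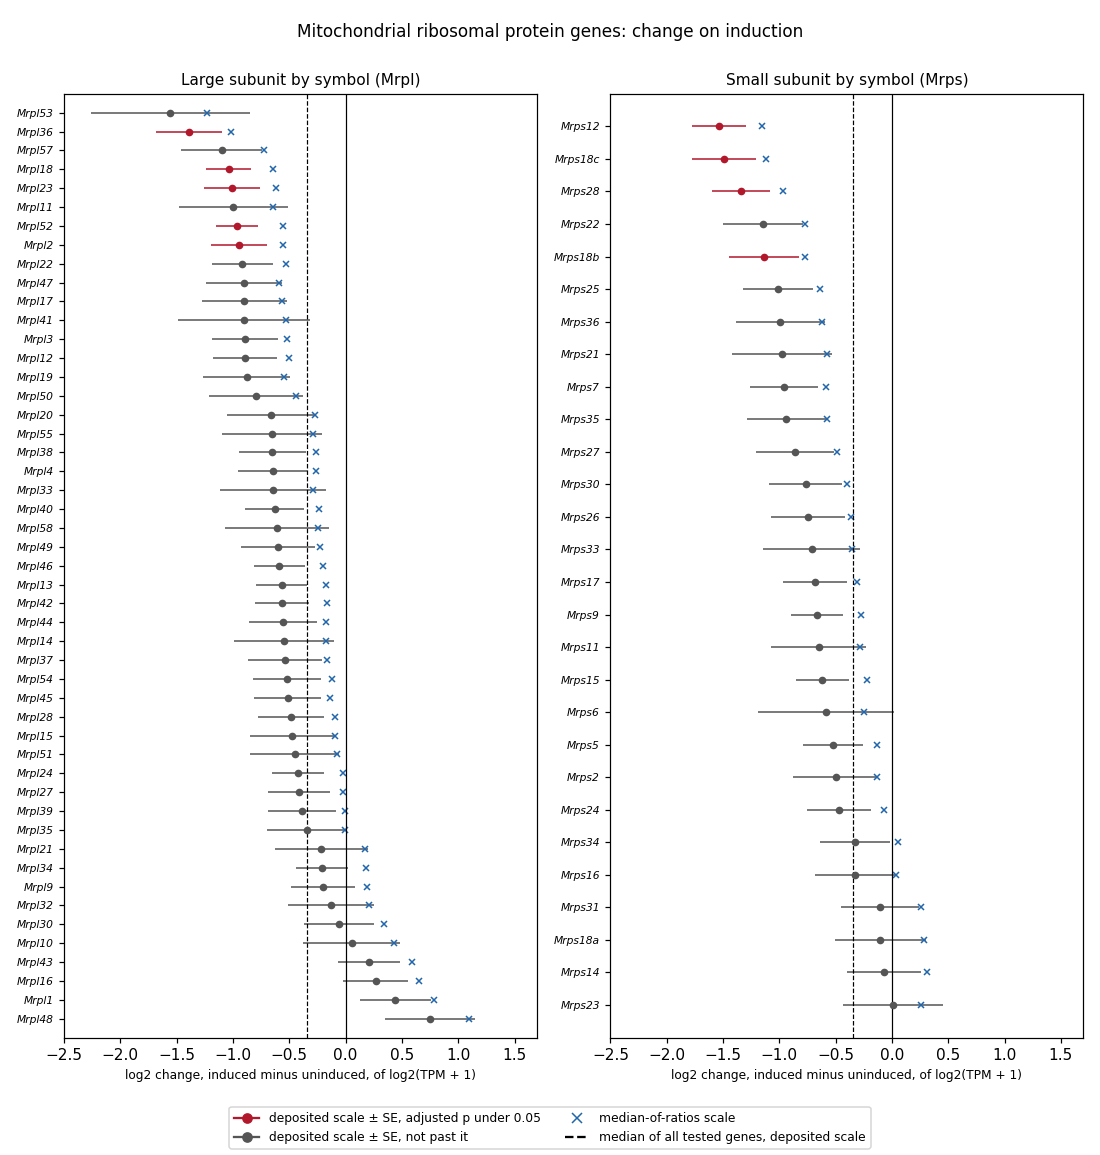
Log2 change (induced minus uninduced) of log2(TPM + 1) for 49 large-subunit and 28 small-subunit genes, with the SE of the limma fit, on the deposited scale (circles, red where the adjusted p is under 0.05) and after median-of-ratios scaling (crosses). The dashed line is the median of all tested genes, at -0.35. Most circles lie left of that line, and 9 of 77 are red.

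Small-subunit genes are taken here in order of their role. Mrps12 encodes a protein of the decoding centre, where the codon is read. It was at 24.4, 30.8 and 23.2 TPM without induction and at 7.83, 9.42 and 7.67 TPM after it. Every induced library lay below every uninduced one, and the induced mean was 31.8% of the uninduced mean. The log2 change was -1.54 ± 0.24 (SE; limma, adjusted p = 0.00498), and -1.15 after median-of-ratios scaling (limma, adjusted p = 0.0201). Mrps12 passed the threshold in all 17 alternative fits, in which its adjusted p ranged from 0.00361 to 0.0382.

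The Mrps18 genes encode paralogues of a bacterial small-subunit protein. Mrps18c was at 16.7, 17.4 and 20.3 TPM without induction and at 4.15, 7.33 and 6.25 TPM with it. Its log2 change was -1.49 ± 0.28 (SE; limma, adjusted p = 0.0108), and after median-of-ratios scaling -1.12 (limma, adjusted p = 0.0569). The levels of Mrps18b were 11.5, 12.9 and 12.5 TPM against 3.29, 6.84 and 5.58 TPM, and the limma log2 change was -1.13 ± 0.31 (SE, adjusted p = 0.0443), with an adjusted p of 0.192 after median-of-ratios scaling. Both had groups that did not overlap. Mrps18a, whose product sits in the large subunit in spite of its symbol, was at 37.1, 14.1 and 30.4 TPM against 32.6, 13.4 and 28.8 TPM. Its groups overlapped almost fully, and its limma log2 change of -0.11 ± 0.40 (SE, adjusted p = 0.891) turned to 0.28 after median-of-ratios scaling. The difference in response between the paralogues was not tested.

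Mrps28, a small-subunit protein with a bacterial homologue, was at 19.9, 20.2 and 17.4 TPM without induction and at 8.43, 6.81 and 5.80 TPM with it. The groups lay well apart relative to their spread, and the log2 change was -1.34 ± 0.26 (SE; limma, adjusted p = 0.0110). After median-of-ratios scaling it was -0.97 and missed the threshold (limma, adjusted p = 0.0504). Mrps22, a mitochondria-specific protein of the small subunit that was singled out after its values were seen, changed by -1.15 ± 0.36 (SE; limma, adjusted p = 0.0646). Its uninduced libraries ranged from 9.94 to 27.0 TPM, and its induced ones from 5.72 to 7.99 TPM. The most abundant small-subunit genes were Mrps21, Mrps5 and Mrps15, at 47.2 ± 23.8, 32.7 ± 5.39 and 33.2 ± 5.75 TPM (SD, n = 3) without induction. Their log2 changes were -0.98, -0.53 and -0.62, and none passed. The lowest measured ones, Mrps31 and Mrps23, showed changes of -0.11 and 0.01 with overlapping groups, and the sign of both depended on scaling or on the pseudocount.

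Symbols and structure disagree for a few members. Mrps30, named as a small-subunit protein, is part of the large subunit, and its level was 11.9 ± 4.45 against 6.39 ± 1.31 TPM (SD, n = 3; log2 change -0.77, limma, adjusted p = 0.158). Mrps36 is a subunit of the 2-oxoglutarate dehydrogenase complex of the citric acid cycle and not of the ribosome. It was at 17.8 ± 7.53 against 8.35 ± 3.58 TPM (SD, n = 3; log2 change -0.99, limma, adjusted p = 0.133). Neither passed the threshold. Placing members by structure left the counts at 5 of 51 in the large and 4 of 25 tested in the small subunit, and at 0 and 1 after median-of-ratios scaling, beside backgrounds of 10.2% and 3.1%.

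Among large-subunit genes, the peptidyl transferase region forms the peptide bond and holds the product of Mrpl2. Mrpl2 was at 28.9, 40.4 and 24.2 TPM without induction and at 14.01, 17.4 and 14.8 TPM after it. Its groups did not overlap, and it changed by -0.95 ± 0.25 (SE; limma, adjusted p = 0.0373). Mrpl36, whose bacterial homologue is a very small protein of the large subunit, was at 21.8, 16.3 and 15.9 TPM against 5.02, 8.81 and 5.31 TPM. Its limma log2 change was -1.39 ± 0.29 (SE, adjusted p = 0.0171), and the groups again lay apart.

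The central protuberance of the large subunit contacts the small subunit and includes Mrpl18 and Mrpl52 among its 7 members here. Mrpl52 was the most abundant of all 78 genes, at 150.0, 221 and 159 TPM without induction and 84.0, 83.2 and 100 TPM with it. Induced libraries held 50.5% of the uninduced mean, and the limma log2 change was -0.96 ± 0.19 (SE, adjusted p = 0.0120). Mrpl18 was at 56.3, 66.0 and 48.3 TPM against 26.5, 30.4 and 24.2 TPM, and the limma log2 change was -1.04 ± 0.20 (SE, adjusted p = 0.0120). Both fell in every induced library relative to every uninduced one. Of the 7, 2 thus fell on the deposited scale and 0 after median-of-ratios scaling, beside backgrounds of 10.2% and 3.1%. The other members of this group did not pass. They included Mrpl58, a peptide release factor built into the ribosome, at -0.61 ± 0.46 (SE). They also included Mrpl48, whose change of 0.75 ± 0.40 (SE; limma, adjusted p = 0.255) was the highest of the 77 genes. Mrpl48 was at 4.16, 5.52 and 6.77 TPM without induction and at 8.10, 6.12 and 18.1 TPM with it, so induced replicate 3 stood high and the groups overlapped. It was singled out after its values were seen, and its exons share 708 bases with Rab6a on the opposite strand.

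The exit tunnel, through which the new protein leaves the ribosome, held 1 gene that fell among its 6 on the deposited scale and 0 after median-of-ratios scaling, beside backgrounds of 10.2% and 3.1%. Mrpl23 was at 24.2, 29.0 and 20.5 TPM against 14.3, 9.95 and 10.98 TPM, and the limma log2 change was -1.01 ± 0.25 (SE, adjusted p = 0.0305). Mrpl45, which anchors the ribosome to the inner membrane, and Mrpl44 changed by -0.51 ± 0.30 and -0.56 ± 0.30 (SE) and did not pass. The lowest large-subunit gene by level, Mrpl47, was at 4.82 ± 0.388 against 2.10 ± 0.0696 TPM (SD, n = 3), with groups that did not overlap but an adjusted p of 0.113 (limma).

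The stalk that recruits translation factors is built from the products of Mrpl10, Mrpl11 and Mrpl12, and none of them passed. Mrpl12, which is also known to bind the mitochondrial RNA polymerase, came nearest, at 36.7, 52.5 and 29.7 TPM against 16.0, 18.5 and 28.2 TPM (log2 change -0.89 ± 0.28 SE; limma, adjusted p = 0.0686). Its groups were adjacent without overlapping. Mrpl11 changed by -0.998 ± 0.48 (SE), with uninduced libraries spread from 4.67 to 21.4 TPM. Mrpl10 changed by 0.06 ± 0.43 (SE), and its uninduced replicate 2, at 24.9 TPM, lay far above the other two at 6.69 and 7.65 TPM. The other abundant large-subunit gene beside Mrpl52 and Mrpl18 was Mrpl54, at 55.9 ± 24.1 against 37.4 ± 9.35 TPM (SD, n = 3; log2 change -0.52, limma, adjusted p = 0.297). Mrpl32, the second lowest of the large subunit, changed by -0.13 on the deposited scale and by 0.21 after median-of-ratios scaling.

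Libraries of a group differed for some members. Mrpl53, a mitochondria-specific protein singled out after its values were seen, had the most negative change of all, -1.56 ± 0.71 (SE), and did not pass (limma, adjusted p = 0.186). It was at 11.6, 4.52 and 9.84 TPM without induction and at 1.19, 9.88 and 0.250 TPM with it, so induced replicate 2 lay within the uninduced range. Without that library the change was -2.46 and passed (limma, adjusted p = 0.0406). Of the 790 exonic bases of Mrpl53, 695 are shared with Gm42688 on the same strand, so its value is uncertain. Within the uninduced group, replicate 2 was the highest library for 42 of the 77 genes and replicate 3 the lowest for 42, and after median-of-ratios scaling these counts were 34 and 29. The median SE of the 77 changes was 0.31, against 0.35 for all genes tested.

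**Figure D3:**
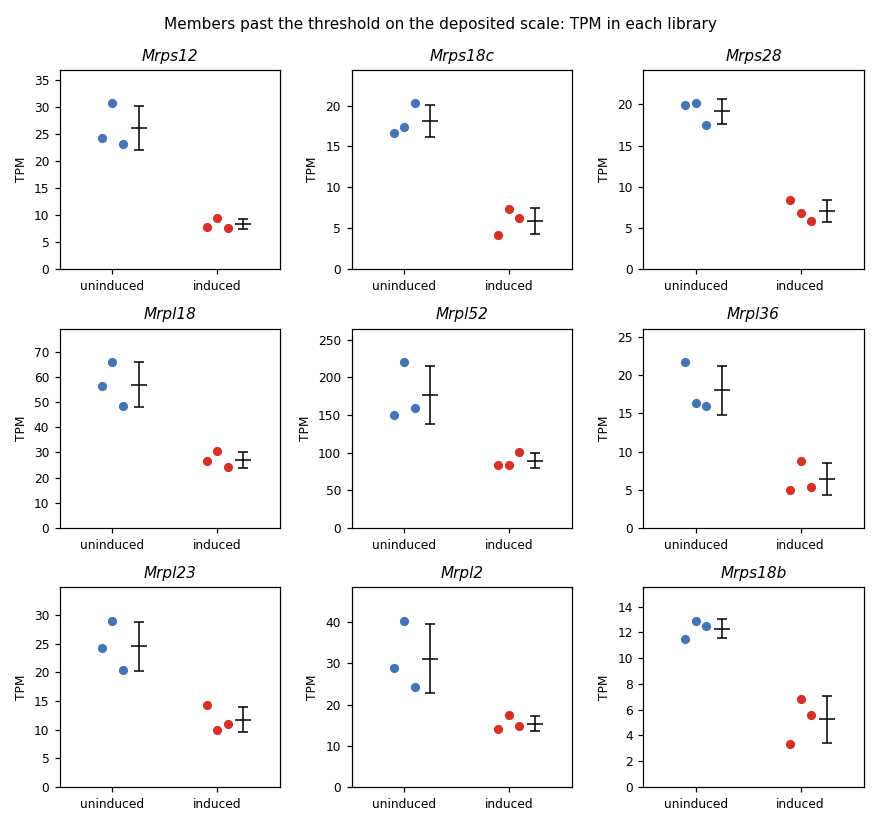
TPM of the 9 genes that fell, in each library (blue uninduced, red induced; 3 libraries each), with mean ± SD beside the points and linear axes from 0. In each panel every induced point lies below every uninduced point, and levels differ from Mrpl52 (uninduced mean 177 TPM) to Mrps18b (12.3 TPM).

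The changes of the large and small subunits overlapped. Of large-subunit genes 5 of 49 fell (10.2%), with a median log2 change of -0.59. In the small subunit 4 of 28 tested fell (14.3%), with a median of -0.70, beside 10.2% and -0.35 for all genes tested. After median-of-ratios scaling the medians were -0.20 and -0.33, with 0 large-subunit and 1 small-subunit gene past the threshold. Within each library, the mean log2(TPM + 1) of large-subunit genes exceeded that of small-subunit genes by 0.11, 0.31 and 0.03 in the uninduced group and by 0.34, 0.23 and 0.35 in the induced group. The group means were 0.15 ± 0.15 and 0.31 ± 0.07 (SD, n = 3), and the groups overlapped because uninduced replicate 2 lay inside the induced range. The difference between the subunits' median changes, 0.11, fell to 0.01 without uninduced replicate 3 and rose to 0.25 without induced replicate 2. Genes with bacterial homologues gave 7 of 45 tested lower and a median of -0.64, and mitochondria-specific genes 2 of 31 and a median of -0.61, beside the same background. After median-of-ratios scaling these counts were 1 and 0, beside 3.1% of all genes, with medians of -0.27 and -0.24. The difference between these classes was not tested.

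The genes lie scattered over the genome, and their neighbours were examined because TPM of overlapping genes can share reads. In GENCODE M21 on GRCm38 all 78 were found, 8 of them sharing exon bases with a gene on the same strand and 28 with one on the opposite strand. Mrps12 lies at chr7:28739641-28741820 on the minus strand, Mrps28 at chr3:8802146-8923918 (minus), Mrpl52 at chr14:54426909-54429756 (plus) and Mrpl23 at chr7:142532686-142540747 (plus), and none of these shared exon bases with another gene. Mrpl2 at chr17:46646229-46650139 (plus) shared none either. Mrps18c at chr5:100798627-100804471 (plus) shared 250 bases with Gm43511 on its own strand, so its value is less certain. Opposite-strand overlaps were 141 bases with Tcp1 for Mrpl18 at chr17:12911349-12916345 (minus), 638 with Gm16279 for Mrps18b at chr17:35910379-35916389 (minus), and 30 with Ndufs6 for Mrpl36 at chr13:73328513-73332178 (plus). The library kit marks strand, but whether strand was used in the quantification is not given in the sources used here. The table also lists 5 processed pseudogenes of these genes, 3 of them tested and 0 past the threshold in either direction (limma; 0 at an unadjusted p under 0.05).

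A divergent protein-coding neighbour, starting within 500 bases on the opposite strand, was present for 25 of the 78 genes. Of the 23 neighbours tested, 2 were themselves members, Mrps11 and Mrpl46, which lie head to head. Of the other 21, 2 fell and 0 rose on the deposited scale, with a median log2 change of -0.43, and 1, Ncapd2, passed after median-of-ratios scaling. This is near the background of 10.2% lower and a median of -0.35 on the deposited scale, and of 3.1% lower after scaling. Those that fell were Ncapd2, a condensin subunit beside Mrpl51, at 38.5 ± 1.39 against 8.79 ± 1.36 TPM, and Gga3, a Golgi sorting adaptor beside Mrps7, at 18.0 ± 4.68 against 6.49 ± 1.31 TPM (SD, n = 3). Mrps12 starts 172 bases from Sars2, the mitochondrial seryl-tRNA synthetase. Sars2 was at 9.31, 7.41 and 4.74 TPM without induction and at 0, 1.201 and 6.30 TPM with it, and did not pass (log2 change -1.65 ± 0.64 SE; limma, adjusted p = 0.128). For Mrpl2, Mrps18b and Mrps18c, the neighbours Klc4, Ppp1r10 and Helq had changes of 0.06, 0.41 and 0.72, and for Mrpl36 the neighbour Ndufs6 had one of -0.43, all short of the threshold.

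Promoter sequence was read from RefSeq on GRCm38.p6, in windows of 250 bases before to 50 after each start, which were found for 69 of the 78 genes (75 windows). The stretches below lie upstream of 3 genes that fell and end at the base before the start, leaving out bases that belong to exons of a neighbour. Of the genes that fell, Mrpl2, Mrpl36 and Mrps18c have an E-box in a window. Annotated exons reach the starts of Mrpl36 and Mrps18c, and these are not shown. Mrps12 is shown because it passed in every fit, Mrpl52 because it is the most abundant of the genes, and Mrpl2 because its window holds an E-box. Each is written 5′ to 3′ along the gene's own strand, and capitals mark the matches found by search on both strands: GGGCGG or its complement for the GC box, CCGGAAG for the ETS motif, AAGATGG for the YY1 motif, TGTGGT for the RUNX motif and CACGTG for the E-box. No motif contains another, and the E-box reads the same on both strands.
Mrps12, chr7:28741822-28741991, minus strand: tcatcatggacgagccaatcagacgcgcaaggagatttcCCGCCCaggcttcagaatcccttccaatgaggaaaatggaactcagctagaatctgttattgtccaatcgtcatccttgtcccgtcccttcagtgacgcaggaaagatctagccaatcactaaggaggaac
Mrpl52, chr14:54426659-54426908, plus strand: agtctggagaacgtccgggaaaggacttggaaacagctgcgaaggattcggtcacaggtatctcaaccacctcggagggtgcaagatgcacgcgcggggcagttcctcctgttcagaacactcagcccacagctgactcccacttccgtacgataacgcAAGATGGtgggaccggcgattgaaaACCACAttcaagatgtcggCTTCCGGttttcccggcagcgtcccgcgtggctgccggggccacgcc
Mrpl2, chr17:46646023-46646228, plus strand: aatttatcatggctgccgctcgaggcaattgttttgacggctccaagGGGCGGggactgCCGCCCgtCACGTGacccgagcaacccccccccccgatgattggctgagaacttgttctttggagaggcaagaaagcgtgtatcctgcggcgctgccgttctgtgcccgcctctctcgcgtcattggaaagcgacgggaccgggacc

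Those sequences carry a GC box for Mrps12, a YY1, a RUNX and an ETS motif for Mrpl52, and a pair of GC boxes with an E-box for Mrpl2. Over all windows, the ETS motif, which is bound by the family that includes ETV6 and the GABP factor, was in 26 of 75 member windows (34.7%), in 18.7% of windows of tested genes and in 8.86% of all windows. The RUNX motif was in 9 (12.0%), against 12.4% and 16.8%. The E-box bound by MYC was in 7 (9.3%), against 10.3% and 7.15%. These 7 windows belong to 5 genes, since the 3 windows of Mrpl2 overlap and hold the same match. The GC box was in 39 (52.0%, from 34 genes), against 63.3% and 35.7%. The motif TGCGCAT, the start of the longer site of NRF1, was in 9 windows of 8 genes (12.0%), against 5.0% and 2.85%. The YY1 motif was in 13 windows (17.3%), against 7.31% and 6.34%. A match describes the letters only.

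The rest of the machinery of mitochondrial protein synthesis was counted in lists written by hand, to be read beside the 10.2% of all tested genes that fell on the deposited scale and the 3.1% after median-of-ratios scaling. Of 5 ribosomal proteins with other symbols, only Ptcd3, a small-subunit RNA-binding protein, fell, from 23.1 ± 4.07 to 9.46 ± 3.62 TPM (SD, n = 3; log2 change -1.25, limma, adjusted p = 0.0301), and it was not past the threshold after median-of-ratios scaling (limma, adjusted p = 0.152). Dap3, a GTP-binding small-subunit protein, and Gadd45gip1 of the large subunit changed by -0.50 and -0.40 and did not pass, and Gadd45gip1 changed by 0.01 when scaled to nuclear protein-coding genes. The median of the 5 was -0.82. Of 27 tested assembly factors, which modify the ribosomal RNA and help it fold, Mrm3, a ribosomal RNA methyltransferase, fell (log2 change -1.75, limma, adjusted p = 0.0412). After median-of-ratios scaling Mrm3 did not pass (limma, adjusted p = 0.117). The median of the assembly factors was -0.66. Of 15 translation factors Lrpprc, a stabiliser of mitochondrial mRNAs, fell, from 21.2 ± 1.43 to 7.22 ± 2.58 TPM (SD, n = 3). Its log2 change was -1.47 (limma, adjusted p = 0.0114), and -1.10 after median-of-ratios scaling (limma, adjusted p = 0.0492). Tufm, the elongation factor that brings aminoacyl-tRNA to the ribosome, was at 28.7 ± 3.19 against 17.0 ± 2.86 TPM and did not pass (log2 change -0.73; limma, adjusted p = 0.0617). Of 19 tested aminoacyl-tRNA synthetase genes Rars2, for arginine, fell (log2 change -0.99, limma, adjusted p = 0.0463), but not after median-of-ratios scaling (limma, adjusted p = 0.256). Over 17 alternative fits Lrpprc passed in 14, Ptcd3 in 5, Mrm3 in 4, Rars2 in 3 and Tufm in 1. No gene of 12 for mitochondrial DNA maintenance and transcription passed in either direction (3 lower and 0 higher at an unadjusted p under 0.05; limma), and Tfam, which packages mitochondrial DNA, came near (log2 change -0.94, limma, adjusted p = 0.0549). Tfam passed in 1 of the 17 alternative fits. Polrmt, the mitochondrial RNA polymerase, changed by -0.86 (limma, adjusted p = 0.212).

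Among 9 tested regulators of mitochondrial gene expression 2 fell and 0 rose. Myc, a transcription factor that drives growth and ribosome production, was at 52.4, 74.7 and 52.1 TPM without induction and 15.4, 18.0 and 31.8 TPM with it. Its log2 change was -1.47 ± 0.28 (SE; limma, adjusted p = 0.0120), and -1.07 after median-of-ratios scaling (limma, adjusted p = 0.0415). Pprc1, a growth-regulated coactivator of the PGC-1 family, changed by -1.66 (limma, adjusted p = 0.0207), from 16.2 ± 7.85 to 4.20 ± 1.29 TPM (SD, n = 3), and did not pass after median-of-ratios scaling (limma, adjusted p = 0.0832). Over 17 alternative fits Myc passed in 13 and Pprc1 in 6. The transcription factors Nrf1 and Gabpa changed by -0.06 and -0.64 and did not pass, and Nrf1 changed by 0.32 after median-of-ratios scaling. The coactivator Ppargc1b changed by -1.39 and did not pass (limma, adjusted p = 0.0698). Ppargc1a had a mean below 1 TPM and was not tested.

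The RNAs of the mitochondrial ribosome are encoded by mitochondrial DNA, and neither passed on the deposited or the median-of-ratios scale. The small-subunit RNA mt-Rnr1 was at 56520 ± 5583 against 44320 ± 2535 TPM and the large-subunit RNA mt-Rnr2 at 55970 ± 5358 against 45100 ± 2680 TPM (SD, n = 3). These were log2 changes of -0.35 and -0.31 on the deposited scale and of 0.06 and 0.10 after median-of-ratios scaling. After quantile normalization mt-Rnr2 changed by 0.02, while mt-Rnr1 changed by -0.40 and passed (limma, adjusted p = 0.0389). Of the 13 mitochondrially encoded mRNAs, which this ribosome translates, 6 fell on the deposited scale and 3 after median-of-ratios scaling. The 3 were mt-Nd1, mt-Nd5 and mt-Co1, subunits of respiratory complexes, with log2 changes of -0.88, -0.89 and -0.88 on the deposited scale and of -0.47, -0.48 and -0.47 after scaling.

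**Figure D4:**
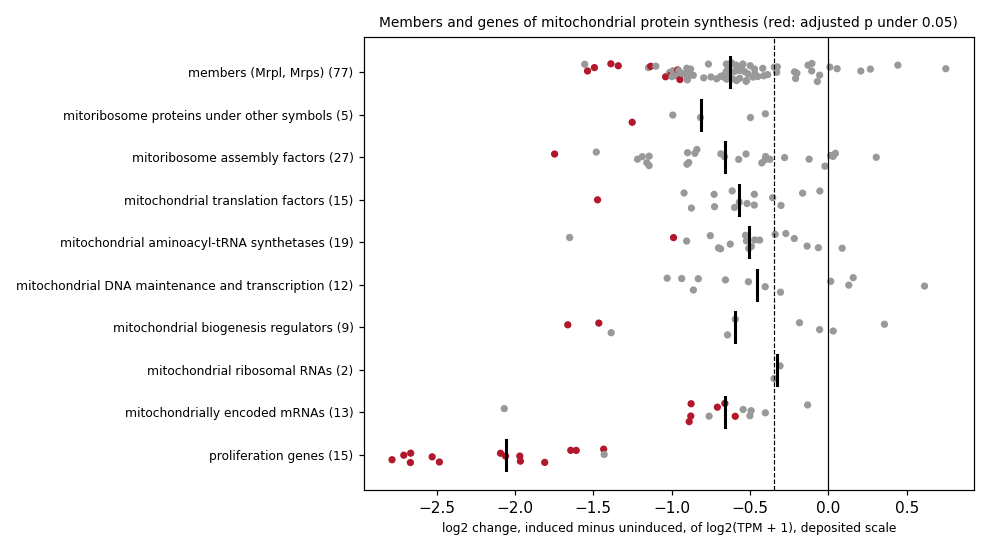
Log2 change of each tested gene of the mitochondrial ribosomal proteins, of 8 lists of mitochondrial gene expression and of proliferation genes, on the deposited scale (points, red where the limma adjusted p is under 0.05; number tested in brackets). Thick bars are list medians and the dashed line is the median of all tested genes, at -0.35. The medians of the mitochondrial lists lie between -0.82 and -0.33, and that of the proliferation genes at -2.06.

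Related gene families are given for comparison. The 83 tested cytosolic ribosomal protein genes had a median log2 change of -0.60, and the 79 tested nuclear genes for respiratory chain and ATP synthase subunits one of -0.61, beside -0.63 for the mitochondrial ribosomal proteins. After median-of-ratios scaling the medians were -0.20, -0.21 and -0.25. On the deposited scale 45 of 83 and 19 of 79 fell and 0 rose, beside 10.2% lower and 1.29% higher of all genes tested. After median-of-ratios scaling 6 of the 83 fell and 2 rose, and 1 of the 79 fell and 0 rose, beside 3.1% and 2.88%. The genes of those families had median levels of 384 and 35.8 TPM and median SEs of 0.16 and 0.24, against 13.5 TPM and 0.31 here. Differences between these families were not tested. Of 13 proliferation genes that reached a mean of 1 TPM in each group, 12 fell on either scale, with Mki67 at 49.9 ± 2.84 against 7.04 ± 0.856 TPM (SD, n = 3; log2 change -2.67, limma, adjusted p = 0.000255). Top2a and Mcm5 changed by -2.78 and -2.71. Their part in the fall of the mitochondrial ribosomal protein genes, and that of the erythroid markers and of the smaller nuclear protein-coding share, was not tested.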

How the data were processed

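The values were TPM in a single table of 60496 rows that the authors deposited, with a column per library, as named in the file header. The submitters' processing notes name bcl2fastq, HISAT2, StringTie and DESeq2 and the build GRCm38, with no roles or versions. The deposited table also gives GC content in percent per gene, per the file headers, used only for the GC correction. Rows were summed per gene ID (55471 IDs, with 5025 repeated rows, none of them of a gene described here), and columns totalled 999976 to 999993 TPM. TPM is a share of the library, so more of one RNA lowers all others, and depth is unknown.

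Libraries were grouped by title. Tests were two-sided in limma 3.58.1 (R 4.3.3) with a variance trend on log2(TPM + 1), for the 13470 genes whose mean reached 1 TPM, with Benjamini-Hochberg adjustment and a threshold of 0.05. Fold changes on that scale understate changes of low genes. Alternatives were median-of-ratios scaling, quantile normalization, rescaling to nuclear protein-coding genes, pseudocounts of 0.1 and 5, no filter, a mean of at least 5 TPM, no variance trend, a replicate block, a loess GC correction with and without that block, and each library left out. The step was tested on simulated data of 13470 genes for this comparison, of which 200 were changed. The changed genes were drawn only from those above about 5 TPM, and no shift common to all genes was simulated. Of genes changed by 1 log2 unit 31.4% were recovered, and of those changed by 2 92.6%, with 14 false among 135 calls. The false part exceeded the threshold of 0.05. These rates do not cover genes below that level or the common shift of these libraries. Same-numbered libraries of the groups did not deviate together (r = 0.02, -0.02 and 0.02 across genes), and no label pairs them.

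The genes and lists were chosen with earlier results of these data known. Named genes were those past the threshold on either scale, the most and least abundant of each subunit, genes fixed by role (the stalk proteins, Mrps12, Mrpl44, Mrpl45, Mrpl58, Mrps30, the Mrps18 paralogues and Mrps36), and up to 3 called genes of each list with mt-Rnr1, mt-Rnr2, Tufm, Tfam, Polrmt, Nrf1, Gabpa, Ppargc1a, Ppargc1b, Dap3, Ptcd3, Gadd45gip1 and Mki67. Positions came from GENCODE M21 and promoters from RefSeq, and motif letters were chosen after the data were seen. Python 3.11.15 with pandas 2.3.3 and matplotlib 3.10.9 was used for tables and plots.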

Additional observations from a re-analysis of the deposited data

How the results depend on the processing

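The count of 9 mitochondrial ribosomal protein genes that fell changed with the scaling: it was 1 after median-of-ratios scaling, 2 after quantile normalization and 4 after rescaling to nuclear protein-coding genes. It was 5 with no filter, 4 with no variance trend, 4 with the GC correction, 1 with the GC correction and replicate block together, and between 4 and 8 when each library was left out. With a mean of at least 5 TPM it rose to 11 of 74 tested, adding Mrpl22 and Mrps22, beside 16.3% of all genes lower in that fit. The large- and small-subunit counts were then 6 and 5. Either pseudocount left the count at 9. With the replicate block alone it was 6, all among the 9, and the large-subunit count was 3. No label pairs the libraries, so this block does not describe a paired design. The large-subunit count of 5 became 0, 0 and 1 under those 3 scalings, 2 with no filter, 1 with no variance trend, 1 with the GC correction, 0 with it and the block, and 1 to 5 with a library left out. The small-subunit count of 4 became 1 after median-of-ratios scaling, 2 after quantile normalization and 1 with the GC correction and block. The median change of all these genes was -0.25, -0.27 and -0.25 under the 3 scalings and -0.31 with the GC correction, with or without the block. For the large subunit these medians were -0.20, -0.20, -0.18 and -0.26, and for the small subunit -0.33, -0.34, -0.32 and -0.36. Each of these settings removes the shift common to all genes. The difference between subunit medians ranged from 0.0057 to 0.25 with a library left out. The fall in the members' share of nuclear protein-coding TPM, -0.0835 percentage points, was -0.125 without the 100 highest genes. The count of 12 genes that fell in the lists of mitochondrial gene expression was 5, 7 and 2 under the 3 scalings, 5 with no filter, 3 with no variance trend, 6 with the GC correction, 4 with it and the block, and 4 to 11 with a library left out. With a mean of at least 5 TPM the list count rose to 16, adding Aurkaip1, Dhx30, Tfam and Tufm. These counts are not all of the same genes: the 7 include mt-Rnr1, and the 11, reached without uninduced replicate 3, include Chchd1 and Trmt2b. Of the 12, 6 are mitochondrially encoded and are not held by the nuclear protein-coding rescaling, so its 2 compares with 6 nuclear genes. Under the other scalings 2 nuclear genes passed. The count of 4 was reached without induced replicate 1 and without induced replicate 2.

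The named genes whose direction reversed had not passed on the deposited scale. Under median-of-ratios, quantile and nuclear protein-coding scaling and the GC correction (with or without the block), Mrpl32 changed by 0.21, 0.21, 0.26 and 0.18, Mrps18a by 0.28, 0.28, 0.32 and 0.23, Mrps31 by 0.25, 0.25, 0.30 and 0.23, and Nrf1 by 0.32, 0.30, 0.37 and 0.29. Gadd45gip1 changed by 0.0086 after rescaling to nuclear protein-coding genes and Mrps23 by -0.000845 with a pseudocount of 5. After median-of-ratios scaling mt-Rnr1 changed by 0.061 and mt-Rnr2 by 0.10, and mt-Rnr2 by 0.017 after quantile normalization. With a library left out, the changes ranged from -0.27 to 0.61 for Mrpl10, -0.40 to 0.088 for Mrpl32, -0.50 to 0.27 for Mrps18a, -0.22 to 0.21 for Mrps23, -0.27 to 0.19 for Mrps31 and -0.33 to 0.18 for Nrf1. The cause was not tested.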
